A study of Mus musculus with 6 samples.

Results

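The genes of the tyrosine phosphatases SHP2 (Ptpn11) and SHP1 (Ptpn6) and of 6 adaptor proteins that work with them (Gab1, Gab2, Grb2, Sos1, Frs2 and Shc1) were followed across the cell classes of mouse dorsal skin. They were chosen by name, and all 8 were found among the 31053 genes of the files. Single-cell libraries from the 3′ ends of transcripts were sequenced for female C57BL/6J mice aged 8 to 10 weeks, with 2 libraries in each of 3 groups. The skin of Sham mice was left untreated. In the IMQ group, a daily dose of 62.5 mg of 5% imiquimod cream was applied for 4 days, which inflames the skin. IMQ+SHP099 mice received the same cream and also SHP099, an allosteric inhibitor of the SHP2 protein, by gavage at 10 mg/kg daily for 4 days. All 3 groups share the wild-type strain and carry no engineered allele. Each library holds the skin of several pooled mice, so the library is the replicate, and p-values measure the spread between pools.

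SHP2 and SHP1 are close relatives that carry a pair of SH2 domains before the phosphatase domain. SHP2 is made in most cell types and is known for helping growth factor receptors to switch on RAS and ERK. SHP1 is known chiefly from blood cells, where it acts on receptors with inhibitory tyrosine motifs (ITIMs) in their tails. GAB1, GAB2 and FRS2 are docking proteins that bring SHP2 to activated receptors, SHC1 and GRB2 link receptors to SOS1, and SOS1 loads RAS with GTP. SHP099 acts on the protein, so the mRNA levels below do not measure its inhibition.

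The files use the mouse genome build GRCm38, and the gene coordinates come from its GENCODE vM21 annotation. Ptpn11 (ENSMUSG00000043733) lies on the minus strand at chr5:121130533-121191397 and overlaps Gm42930 on the same strand. Ptpn6 (ENSMUSG00000004266) lies on the minus strand at chr6:124720707-124738714, and Gm20531 overlaps it on the other strand. For the adaptors the positions are chr8:80764438-80880519 for Gab1 (ENSMUSG00000031714, minus strand), chr7:97081586-97308946 for Gab2 (ENSMUSG00000004508, plus strand), chr11:115644045-115708597 for Grb2 (ENSMUSG00000059923, minus strand) and chr17:80393751-80480453 for Sos1 (ENSMUSG00000024241, minus strand). Frs2 (ENSMUSG00000020170, minus strand) lies at chr10:117069427-117148534 and Shc1 (ENSMUSG00000042626, plus strand) at chr3:89418443-89430027. Reads in the overlaps of Ptpn11 with Gm42930 and of Grb2 with Gm11702, which lie on the same strand, could be assigned to neither or either gene.

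The promoters of the phosphatase genes are shown because these genes had different levels across the cell classes. They are RefSeq sequences of GRCm38.p6 running from 250 bases before to 50 bases after the gene start, in the direction of the gene. Capitals mark every match, on both strands, to the GC box (GGGCGG) or to the core bound by PU.1-type ETS factors (GAGGAA). Overlapping matches form a single run of capitals and were each counted.
Ptpn11, chr5:121191348-121191647, minus strand: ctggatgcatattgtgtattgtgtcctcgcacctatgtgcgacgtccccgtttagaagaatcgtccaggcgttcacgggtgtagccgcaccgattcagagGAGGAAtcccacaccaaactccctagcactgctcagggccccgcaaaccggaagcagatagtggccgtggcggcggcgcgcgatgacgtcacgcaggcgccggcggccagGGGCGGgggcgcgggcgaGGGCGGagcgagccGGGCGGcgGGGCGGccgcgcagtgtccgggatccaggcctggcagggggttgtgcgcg
Ptpn6, chr6:124738660-124738959, minus strand: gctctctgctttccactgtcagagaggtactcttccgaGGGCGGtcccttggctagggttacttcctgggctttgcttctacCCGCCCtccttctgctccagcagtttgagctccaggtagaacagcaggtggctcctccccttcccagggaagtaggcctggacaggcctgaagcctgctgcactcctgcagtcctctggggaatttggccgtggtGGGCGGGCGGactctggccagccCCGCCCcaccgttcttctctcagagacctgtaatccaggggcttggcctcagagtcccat

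The Ptpn11 window held 37 CpG dinucleotides and the Ptpn6 window 8, beside a median of 7 over 32851 mouse promoters of the same length. The GC box occurred 4 times in the Ptpn11 window and 5 times in that of Ptpn6, and 35.7% of all promoters held it. The ETS core occurred 1 time in the Ptpn11 window and was not matched in that of Ptpn6, and 28.3% of all promoters held it. These matches describe letters and not bound sites. The Ptpn6 window lies at the upstream end of a gene with 8 coding transcripts, and which start each cell class used was not determined. Of the 8 genes, 7 had an entry in the promoter table, and Gab2 did not.

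The deposited libraries held 53913865 to 188283327 UMIs, the tags that each mark 1 captured molecule, and 50850 of 55201 barcodes passed the filters. IMQ+SHP099 replicate 1 stood apart, with a median of 18263.5 UMIs per cell against 5645 to 8854 in the other libraries. Any 2 libraries shared 14 to 43 barcodes. Clusters were named from marker lists, found in full but for 1 of 10 myeloid genes, and 49280 cells were named. The class with the highest marker score was the same for 85.0% of them. The members were left out of the genes used for clustering, among which Ptpn6 would have been the only one. Levels are in CPM, the UMIs of a gene per 1000000 UMIs of the class in that library, with no other scaling. Since each molecule is counted 1 time at its 3′ end, levels do not scale with transcript length, although capture can differ between genes.

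Ptpn11 was measured in each of the classes listed here, with none of them standing apart. The classes ranked here and below leave out an erythroid cluster of 175 cells, which held 0 UMIs of Ptpn11. Its level in CPM, as the mean over the 6 libraries, was 80.2 ± 25.4 (SD) in Schwann cells, 71.4 ± 11.7 in mural cells (pericytes and smooth muscle), 57.9 ± 31.1 in lymphocytes, 53.3 ± 10.9 in fibroblasts and 52.7 ± 13.8 in endothelial cells. Keratinocytes (39.5 ± 12.5) and myeloid cells (30.2 ± 10.5) had the lowest means. The ranges of all neighbours in this order overlapped, although endothelial cells were above keratinocytes in 6 of 6 libraries.

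In keratinocytes, the Ptpn11 level was 38.1 and 64.7 CPM in Sham replicates 1 and 2, 32.4 and 35.4 under IMQ and 32.0 and 34.6 under IMQ+SHP099. In myeloid cells, it was 20.6 and 48.3 in Sham, 25.4 and 27.3 under IMQ and 36.9 and 22.8 under IMQ+SHP099. Both Sham keratinocyte values were above the 4 treated ones in CPM, but on the TMM scaling of the fits IMQ+SHP099 replicate 1 (40.7) lay above Sham replicate 1 (38.6), whereas in myeloid cells the treated libraries lay between the 2 Sham libraries. In lymphocytes, the level was 63.5 and 88.0 in Sham, 34.3 and 34.1 under IMQ and 101 and 26.8 under IMQ+SHP099, so that the last pair spanned the whole range. The myeloid class mixed subsets with different Ptpn11 levels. Langerhans-like cells had a mean of 47.8 ± 14.0 (SD) over 6 libraries, and neutrophil-like cells 9.86 ± 2.95 over the 3 libraries with at least 20 of them. Neutrophil-like cells numbered 15 in Sham and 451 in IMQ.

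Ptpn6 was a gene of immune cells in these libraries, with a lower level in keratinocytes. Its mean was 218 ± 66.4 CPM in myeloid cells and 109 ± 40.2 in lymphocytes (SD, n = 6 libraries), and myeloid cells were above lymphocytes in 5 of 6 libraries. Keratinocytes followed at 9.58 ± 4.95, below lymphocytes in 6 of 6 libraries with no overlap. Mural cells (2.91 ± 1.54) lay below keratinocytes in 6 of 6 libraries, and fibroblasts were lowest at 1.12 ± 0.328.

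In myeloid cells, the Ptpn6 level was 166 and 131 CPM in Sham, 236 and 306 under IMQ and 195 and 275 under IMQ+SHP099. In lymphocytes, it was 146 and 165 in Sham, 115 and 67.2 under IMQ and 90.4 and 71.0 under IMQ+SHP099. The IMQ libraries were thus both above Sham in myeloid cells and both below Sham in lymphocytes. The myeloid class held other subsets in each group, with 611 dendritic-like and 15 neutrophil-like cells in Sham against 80 and 451 in IMQ. Among the myeloid subsets, Langerhans-like cells, the antigen-presenting cells of the epidermis, had 172 to 314 in the 6 libraries. Neutrophil-like cells had 209 and 293 in IMQ and 272 in IMQ+SHP099 replicate 2, the 3 libraries with at least 20 such cells.

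The share of cells with at least 1 Ptpn6 UMI was 43.1% to 72.7% of myeloid cells, 14.6% to 39.6% of lymphocytes, 12.4% to 23.7% of keratinocytes and 0.480% to 1.41% of fibroblasts across the 6 libraries. Fibroblasts, the class with the lowest mean, serve as a comparison, and whether their UMIs are background was not tested. Median depth ran from 9662.5 to 35030.5 UMIs per cell in keratinocytes, 4968 to 8907.5 in fibroblasts, 4312 to 6851.5 in myeloid cells and 1265 to 4169 in lymphocytes. When each cell was thinned to 3000 UMIs, the share was 30.6% to 56.0% of myeloid cells, 14.5% to 31.8% of lymphocytes, 1.82% to 5.32% of keratinocytes and 0.165% to 0.461% of fibroblasts. The keratinocyte share stayed above the fibroblast share in range at equal depth. Shallower cells were left out, numbering 512, 86 and 191 keratinocytes, 597, 971 and 1140 fibroblasts, 459, 480 and 746 lymphocytes and 409, 312 and 166 myeloid cells in Sham, IMQ and IMQ+SHP099.

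Immune markers were also counted within the keratinocyte class. The 12 lymphocyte markers summed to 85.9 and 68.0 CPM in the Sham libraries, 125 and 103 in those of IMQ and 120 and 73.0 in those of IMQ+SHP099. The 9 myeloid markers summed to 12.9 and 21.3, 33.5 and 32.4, and 9.27 and 19.4 in the same order, with none at 0. Both sums were higher in IMQ than in Sham keratinocytes, whereas the Ptpn6 level was lower there, at 13.8 and 17.7 CPM in Sham, 6.20 and 7.49 under IMQ and 5.96 and 6.37 under IMQ+SHP099.

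Which phosphatase gene gave more UMIs depended on the cell class. Of the UMIs of both genes together, Ptpn6 supplied 73.1% to 92.3% in myeloid cells, 47.3% to 77.1% in lymphocytes, 15.6% to 26.5% in keratinocytes and 1.31% to 2.83% in fibroblasts across the 6 libraries. In keratinocytes, this share was 26.5% (95% Clopper-Pearson interval 25.2 to 27.9) and 21.5% in Sham, 16.1% (14.4 to 17.9) and 17.5% under IMQ and 15.7% and 15.6% under IMQ+SHP099. The 2 Sham libraries were the highest. Intervals cover counting error only.

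**Figure D1:**
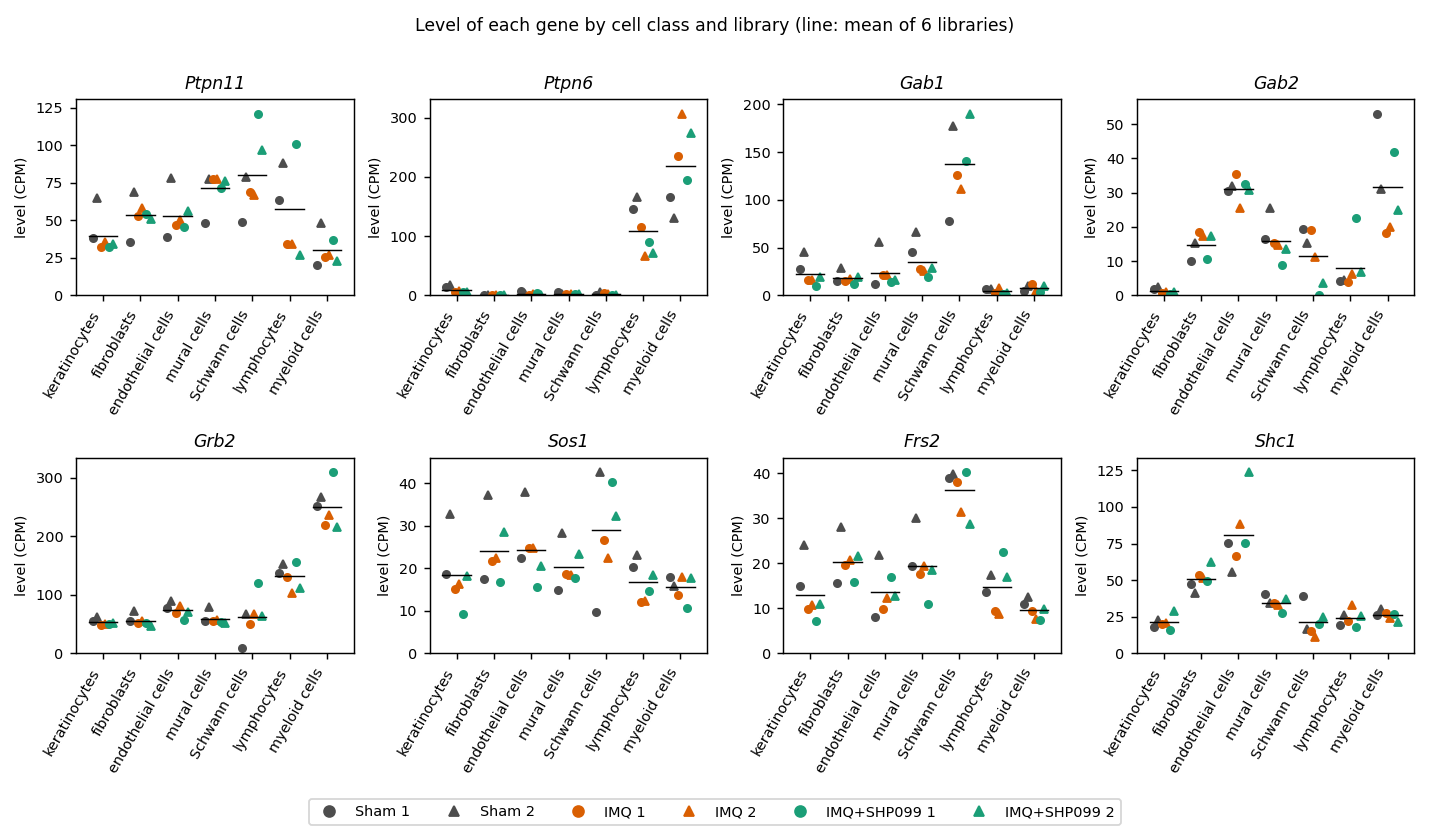
Level of each of the 8 genes in CPM by cell class, with 1 point per library, coloured by group and shaped by replicate, and a line for the mean of 6 libraries; each gene has its own axis. Ptpn6 separates myeloid cells and lymphocytes from the stromal classes, Gab1 peaks in Schwann cells (137 ± 41.6), and Gab2 is lowest in keratinocytes (1.22 ± 0.749).

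The docking proteins GAB1 and GAB2 differed in where their genes were highest. Gab1 was highest in Schwann cells at 137 ± 41.6 CPM (SD, n = 6), above mural cells (35.4 ± 17.6) in 6 of 6 libraries with no overlap. Its means were 23.7 in endothelial cells, 22.5 in keratinocytes and 18.1 in fibroblasts, and lower in myeloid cells (7.36) and lymphocytes (4.62). Gab2 was highest in myeloid cells (31.5 ± 13.5) and endothelial cells (31.1 ± 3.21) and lowest in keratinocytes (1.22 ± 0.749), which lay below lymphocytes in 6 of 6 libraries with no overlap. In the 3 libraries with at least 20 mast- or basophil-like cells, Gab2 was at 79.5, 49.2 and 68.8. Schwann cells numbered 24 to 419 in a library, so their levels rest on few cells.

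In Schwann cells, the Gab1 level was 77.97 and 177 CPM in Sham, 126 and 112 under IMQ and 141 and 190 under IMQ+SHP099. In keratinocytes, Gab1 was at 28.2 and 46.0 in Sham, 16.4 and 15.8 under IMQ and 9.82 and 18.8 under IMQ+SHP099, so both Sham libraries were above the other 4. Within fibroblasts, a cluster led by Apod had a pooled Gab1 level of 119.

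Grb2, which couples receptors to SOS1, had the highest level of the 6 adaptors in myeloid cells and lymphocytes. Its mean was 250.01 ± 35.1 CPM in myeloid cells (SD, n = 6), above lymphocytes (132 ± 21.2) in 6 of 6 libraries, and lymphocytes were above endothelial cells (74.3 ± 11.2) in 6 of 6 with no overlap. Keratinocytes were lowest at 52.9, with 55.4 and 61.7 in Sham, 48.6 and 50.5 under IMQ and 49.6 and 51.8 under IMQ+SHP099. Sos1 varied less between classes, from 15.6 ± 2.96 in myeloid cells to 29.0 in Schwann cells, and all neighbouring classes overlapped.

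Frs2 and Shc1 had their highest levels outside the immune classes. Frs2, the docking protein of fibroblast growth factor receptors, was at 36.2 ± 4.94 CPM in Schwann cells (SD, n = 6), above fibroblasts (20.3 ± 4.49) in 6 of 6 libraries with no overlap, and lowest in myeloid cells at 9.63. Shc1 was highest in endothelial cells at 80.9 ± 23.7, followed by fibroblasts (50.9 ± 6.98) and mural cells (34.5 ± 4.32), each above the next in 6 of 6 libraries. In endothelial cells, Shc1 was at 75.3 and 55.7 in Sham, 66.6 and 88.5 under IMQ and 75.6 and 124 under IMQ+SHP099.

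The difference between immune and non-immune cells was tested within libraries. The log2 level was averaged with equal weights over lymphocytes and myeloid cells, and over keratinocytes, fibroblasts and endothelial cells, and the 2 means were subtracted. The exact two-sided sign-flip permutation test over 6 libraries cannot give a p below 0.03125, and p-values were adjusted over the 8 genes by the Benjamini-Hochberg method.

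Ptpn6 was higher in immune cells by 5.71 ± 0.597 (mean ± SD on the log2 scale), or 52.2-fold, in 6 of 6 libraries (adjusted exact p = 0.0417). Grb2 was higher by 1.58 ± 0.243, or 3.00-fold, and Gab2 by 0.85 ± 0.906, each in 6 of 6 libraries (adjusted exact p = 0.0417 for both). Gab1 (-1.87 ± 0.394), Shc1 (-0.81 ± 0.316) and Sos1 (-0.40 ± 0.336) were lower in immune cells in 6 of 6 libraries (adjusted exact p = 0.0417 for each). Ptpn11 differed by -0.28 ± 0.504 (adjusted exact p = 0.156) and Frs2 by -0.33 ± 0.352 (adjusted exact p = 0.107), and each was positive in 1 of 6 libraries. The adjusted p passes 0.05 only while at least 6 of the 8 genes sit at the smallest p, so the loss of Sos1 alone moves all of them to 0.05 or above.

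**Figure D2:**
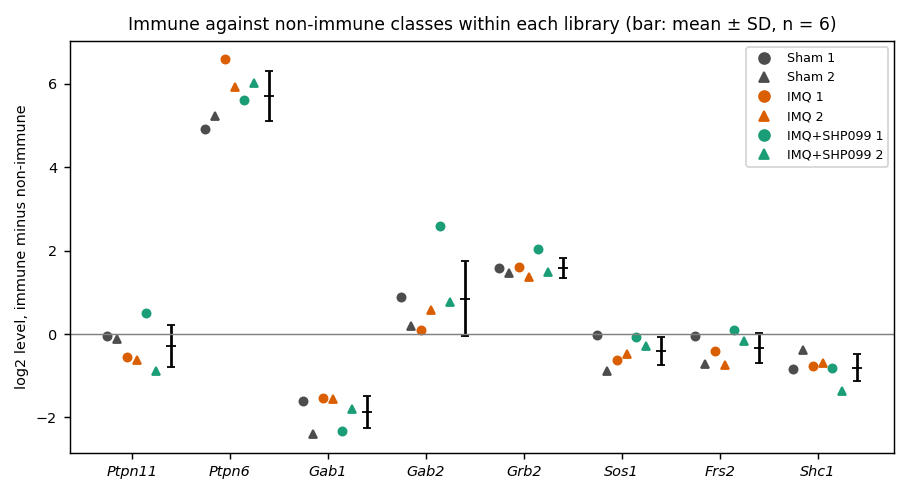
Immune minus non-immune level of each of the 8 genes on the log2 scale, with 1 point per library, coloured by group, and a bar for the mean ± SD. Ptpn6 lies highest (4.91 to 6.58), Grb2 and Gab2 lie above 0 in 6 of 6 libraries, Gab1, Shc1 and Sos1 lie below 0 in 6 of 6, and Ptpn11 and Frs2 each have 1 library above 0.

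Genes with the most similar pattern were ranked by Pearson's r over 42 class sums (7 classes in 6 libraries), among 9331 genes with a mean of at least 10 CPM. The sums of 1 library share its depth, so r is a description. For Ptpn6 the 5 highest were Bin2 (0.96), Vav1, Fermt3, Gpr132 and Pstpip1 (0.93 each), of which Vav1 and Fermt3 encode an exchange factor and an integrin activator of blood cells. For Ptpn11 they were Cul2 and Ube3a (0.82 each), Fbxo21 and Smpd1 (0.80 each) and Kif1b (0.79), of which Cul2, Ube3a and Fbxo21 encode parts of ubiquitin ligases. Between Ptpn11 and Ptpn6, r was -0.50.

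Within lymphocytes, both phosphatase genes differed between 2 clusters. Cluster 4 was led by Cd7, Cd3e, Trdc and Tcrg-C1, and cluster 10 by Ccl5 with Ifng, Gzmb, Icos and Trac. Ptpn11 was at 73.4 and 146 CPM in Sham, 119 and 56.6 under IMQ and 147 and 65.6 under IMQ+SHP099 in cluster 4, against 12.1 and 59.4, 19.8 and 32.3, and 33.1 and 21.8 in cluster 10. Cluster 4 was higher in each of the 6 libraries, with a ratio of the means of 3.40.

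Ptpn6 was at 163 and 333 in Sham, 320 and 156 under IMQ and 95.7 and 78.7 under IMQ+SHP099 in cluster 4, against 56.4 and 82.7, 80.3 and 60.2, and 82.9 and 70.0 in cluster 10. It too was higher in cluster 4 in 6 of 6 libraries, with a ratio of the means of 2.65. Gab2 followed at 18.6 ± 12.3 against 2.35 ± 2.34 (SD, n = 6), again in 6 of 6 libraries, while Grb2 was higher in cluster 4 in 1 of 6, at 116 ± 16.7 against 157 ± 53.0. The 2 clusters were set beside each other after their levels were seen, so the values are given with no test.

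**Figure D3:**
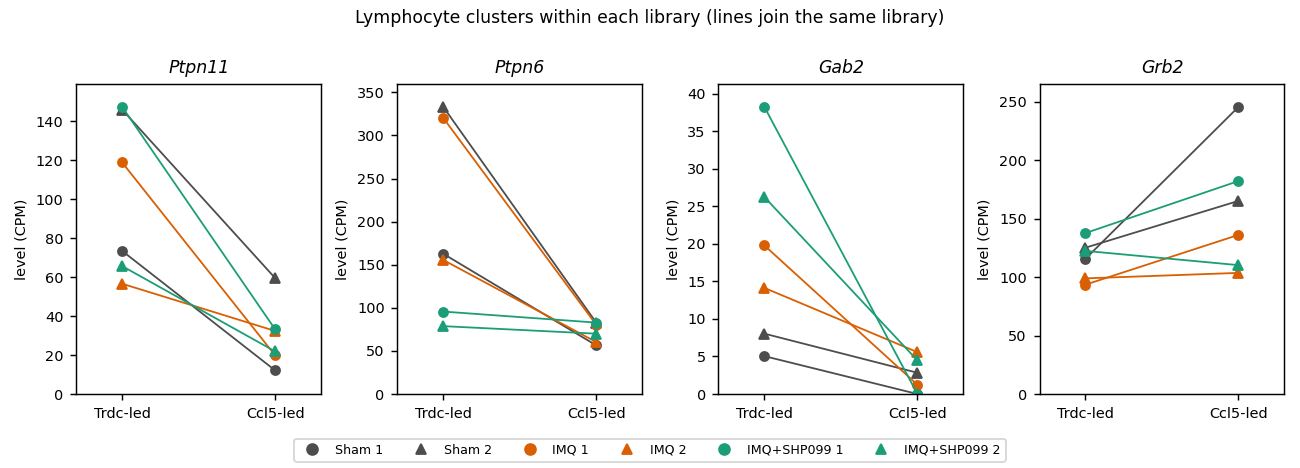
Levels of Ptpn11, Ptpn6, Gab2 and Grb2 in CPM in lymphocyte clusters 4 (Trdc-led) and 10 (Ccl5-led), with 1 point per library and a line joining the values of a library. The lines of Ptpn11, Ptpn6 and Gab2 fall from cluster 4 to cluster 10 in 6 of 6 libraries, and that of Grb2 falls in 1 of 6.

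Cluster 4 made up 75.7% and 29.1% of lymphocytes in Sham, 34.3% and 14.1% under IMQ and 81.4% and 26.0% under IMQ+SHP099. The libraries with the 2 highest shares, replicate 1 of Sham and of IMQ+SHP099, had Ptpn11 levels of 63.5 and 101 over all lymphocytes. The level was 88.0 in Sham replicate 2, 34.3 and 34.1 under IMQ and 26.8 in IMQ+SHP099 replicate 2. The levels were thus not in the order of the shares. Fits within each cluster stand beside the values over all lymphocytes where the groups are compared.

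The comparison of IMQ with Sham asked whether the cream moved any of the 8 mRNAs. UMIs were summed per library and class and fitted with edgeR's quasi-likelihood test, with Benjamini-Hochberg adjustment over all genes of the sum. In bulk sums such as all cells, a change in the number of cells of a type and a change within the cells cannot be told apart. Of the 8 genes, 0 passed an adjusted p of 0.05 in any of the 7 sums, and Ptpn6 was not tested in endothelial cells for low counts. Over all genes, the percentages called were 12% in keratinocytes (4.89% higher and 7.13% lower), 9.81% in macrophage-like cells, 1.17% in fibroblasts and 0% in each of the other sums. At an unadjusted p under 0.05, the test took 1 of the 8 genes in all cells (7.28% of all genes), 3 in keratinocytes (29.4%), 1 in myeloid cells (11.1%), 2 in macrophage-like cells (25.7%) and 0 in fibroblasts (13%), endothelial cells (12.8%) and lymphocytes (12.6%). Given 8 genes, these counts are near the shares of all genes. DESeq2 called 1 of them, Ptpn6 in keratinocytes, at an adjusted p of 0.0355.

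Ptpn11 itself had log2 fold changes, IMQ over Sham, of -0.06 ± 0.309 (SE) in all cells, -0.28 ± 0.236 in keratinocytes, -0.26 ± 0.286 in endothelial cells, 0.24 ± 0.256 in fibroblasts, -0.19 ± 0.394 in myeloid cells and 0.10 ± 0.425 in macrophage-like cells. In lymphocytes the value was -1.01 ± 0.540, with an edgeR adjusted p of 0.491. Each was smaller than 2 standard errors. In macrophage-like cells, Ptpn11 had 0 UMIs in the 39 cells of Sham replicate 1, which allows a level of up to 24.5 CPM, and was at 35.8 CPM in Sham replicate 2, 26.4 and 27.3 under IMQ and 26.6 and 16.9 under IMQ+SHP099.

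In keratinocytes, Ptpn6 had a log2 fold change of -0.91 ± 0.263 (edgeR unadjusted p = 0.00796, adjusted p = 0.0585) and Gab1 one of -0.88 ± 0.271 (edgeR adjusted p = 0.0713). Both Sham libraries were above both IMQ libraries for each gene. Frs2 had -0.60 ± 0.245 (edgeR adjusted p = 0.145), Gab2 -0.92 ± 0.485 (0.246) and Sos1 -0.37 ± 0.280 (0.414), whereas Grb2 (0.04 ± 0.246) and Shc1 (0.30 ± 0.253) were near or above 0. These folds are relative to the TMM scaling, which lies 0.28 on the log2 scale above a scaling to CPM in this contrast.

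The keratinocyte class itself held different clusters in the 2 groups. Clusters led by Krt15, Krt10 and Krt77, which mark basal and differentiating interfollicular cells, made up 92.4% and 67.7% of keratinocytes in Sham. In IMQ they held 0 of 1314 and 0 of 835 keratinocytes, which allows shares of up to 0.228% and 0.359%. A cycling cluster and one led by Krt6b made up 60.7% and 40.8% in IMQ against 0.217% and 0.689% in Sham. All libraries were clustered together without integration. Whether cells of the same type fell into different clusters by group was not tested, so these are shares of clusters and not of cell types. The pooled Gab1 level was 65.5 CPM in the Krt77-led cluster and 8.12 in the cycling cluster, and that of Ptpn6 was 14.8 and 4.96.

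The Krt79-led cluster 9 was the only keratinocyte cluster with at least 20 cells in every library. Within it, Gab1 was at 15.2 and 20.6 CPM in Sham, 12.7 and 16.6 under IMQ and 9.62 and 13.2 under IMQ+SHP099, with a log2 fold change, IMQ over Sham, of -0.03 ± 0.327 (edgeR adjusted p = 0.971). Ptpn6 was at 11.8 and 20.6 in Sham, 7.58 and 9.40 under IMQ and 9.43 and 9.62 under IMQ+SHP099, with -0.71 ± 0.337 (edgeR adjusted p = 0.192). The value of Gab1 was thus near 0 within this cluster, while that of Ptpn6 had the sign it had over all keratinocytes. Of the 7 members tested there, 0 were called, at an adjusted p or at an unadjusted p under 0.05, beside 16.6% and 30.3% of 11734 genes. For IMQ+SHP099 over IMQ, edgeR again took 0 members at either p, beside 0.017% and 3.53% of all genes.

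In macrophage-like cells, Ptpn6 was at 139 and 154 CPM in Sham, 239 and 295 under IMQ and 319 and 269 under IMQ+SHP099. All 4 treated libraries were above both Sham libraries. The log2 fold change, IMQ over Sham, was 1.07 ± 0.349 (edgeR unadjusted p = 0.0109, adjusted p = 0.0783), and it was 1.03 ± 0.380 over all myeloid cells (edgeR adjusted p = 0.403). The share of macrophage-like cells with a Ptpn6 UMI was 38.5% (95% Clopper-Pearson interval 23.4 to 55.4) and 36.0% (31.0 to 41.2) in Sham, 69.4% and 77.3% under IMQ and 64.2% and 66.8% under IMQ+SHP099. Thinned to 3000 UMIs per cell, it was 35.2% in Sham replicate 2, 48.2% and 56.7% under IMQ and 49.5% and 51.2% under IMQ+SHP099, with Sham replicate 1 left out at 18 cells. Thinning left out 206, 101 and 65 of these cells in Sham, IMQ and IMQ+SHP099.

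The macrophage-like class was also made up of different shares of clusters in the groups. Cluster 13, led by the complement genes C1qb, C1qa and C1qc, held 97.4% and 95.5% of it in Sham, 11.1% and 11.3% under IMQ and 52.8% and 14.7% under IMQ+SHP099. Nearly all the other cells lay in cluster 19, led by Chil3 and Lyz2, which held 1 and 16 cells in the Sham libraries. Within cluster 13, which numbered 28 to 337 cells in a library, Ptpn6 was at 145 and 142 CPM in Sham, 356 and 386 under IMQ and 449 and 453 under IMQ+SHP099. Its log2 fold change there, IMQ over Sham, was 1.37 ± 0.389 (edgeR unadjusted p = 0.00404, adjusted p = 0.195), beside 1.07 over the whole class. Whether the makeup of cluster 13 itself differed between the groups was not tested. In cluster 19, Ptpn6 was at 224 and 285 under IMQ and 177 and 243 under IMQ+SHP099.

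Of the 5 members tested within cluster 13, 0 were called for IMQ against Sham, beside 0.362% of 3867 genes, and 3 (Ptpn6, Gab1 and Sos1) were taken at an unadjusted p under 0.05, beside 10.7%. Gab1 had 5 and 51 UMIs there in Sham and 4 and 0 in IMQ. For IMQ+SHP099 over IMQ, 0 members were taken at either p, beside 0% and 2.25% of genes, and Ptpn6 had 0.35 ± 0.372. Ptpn11 was not tested there for low counts.

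Gab1 had a fold change of the opposite sign in macrophage-like cells, with levels of 40.8 and 40.6 CPM in Sham and 22.8 and 8.87 under IMQ and a log2 fold change of -1.06 ± 0.457 (edgeR adjusted p = 0.173). These levels rest on 5, 51, 69 and 24 UMIs. Fibroblast markers in these cells summed to 65.2 and 692 CPM in Sham and 61.1 and 176 under IMQ, and keratinocyte markers to 750 and 473 in Sham and 242 and 119 under IMQ. Keratinocytes and fibroblasts both express Gab1, and the part of these cells' RNA in the Gab1 level was not tested.

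**Figure D4:**
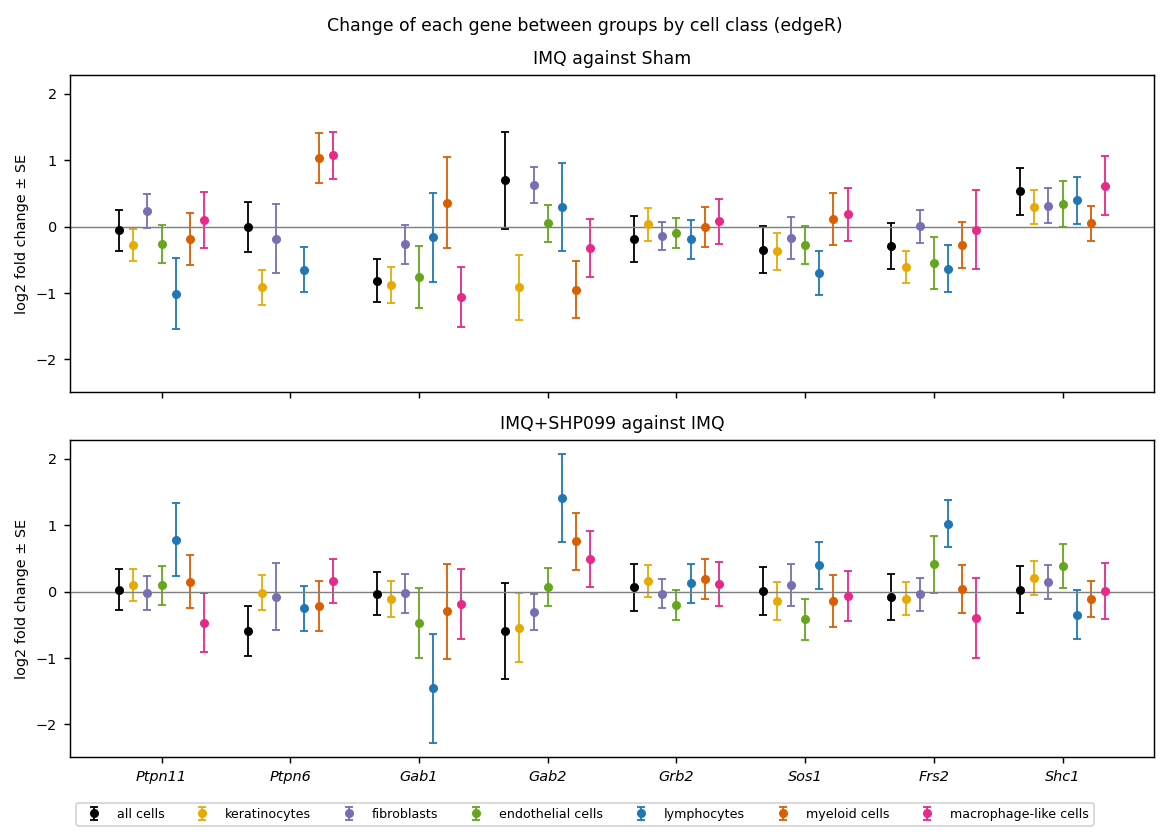
Log2 fold changes of the 8 genes in 7 class sums for IMQ over Sham and for IMQ+SHP099 over IMQ, with error bars of 1 SE from edgeR. Ptpn6 lies above 0 in myeloid (1.03) and macrophage-like cells (1.07) and below 0 in keratinocytes (-0.91), and no value passed an adjusted p of 0.05.

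The order of libraries was also read gene by gene on the TMM-scaled levels. In keratinocytes, 7 of the 8 genes did not overlap between IMQ and Sham, 1 higher (Shc1) and 6 lower, beside 62.8% of all genes. Shc1 did overlap in plain CPM. In all cells 6 of 8 did not overlap (45.7% of all genes), in fibroblasts 2 of 8 (43.7%), in endothelial cells 1 of 7 (47.1%), in lymphocytes 5 of 8 (46.2%), in myeloid cells 3 of 8 (50%) and in macrophage-like cells 5 of 8 (53.1%). With so many genes separated, these counts are not a result about the members.

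Over all lymphocytes, the 5 separated genes were Shc1, which was higher in IMQ, and Ptpn11, Ptpn6, Frs2 and Sos1, which were lower. Fitted within cluster 4, Ptpn11 had a log2 fold change, IMQ over Sham, of -0.05 ± 0.513 and Ptpn6 of 0.16 ± 0.462. Within cluster 10 the values were -0.47 ± 0.527 and 0.09 ± 0.314. That cluster was itself not the same mix of cells, since Trdc was at 203 and 263 CPM there in Sham against 1412 and 390 in IMQ, and Trac at 544 and 361 against 211 and 148. The value of Ptpn6 over all lymphocytes (-0.65 ± 0.335) was thus larger in size than in either cluster. In edgeR fits of the 2 clusters, 0 of 7 members were called for IMQ against Sham, beside 1.7% of all genes in cluster 4 and 0.0199% in cluster 10, and 1 was taken in each at an unadjusted p under 0.05 (Gab2 in cluster 4 and Sos1 in cluster 10), beside 13.2% and 9.07%. For IMQ+SHP099 over IMQ, 0 of 7 members and 0% of genes were called in both, and 1 member was taken in each at an unadjusted p under 0.05 (Ptpn6 in cluster 4 and Frs2 in cluster 10), beside 2.2% and 0.927%.

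Setting IMQ+SHP099 against IMQ asked whether the mRNAs of the drug's target and its partners moved with the inhibitor. Of the 8 genes, 0 were called by edgeR or DESeq2 in any of the 7 sums, and edgeR called 0% of all genes in each sum. At an unadjusted p under 0.05, 1 of 8 members was taken in lymphocytes, Frs2, beside 1.1% of all genes there. None was taken in the other sums, where the shares of all genes were 0.299% in all cells, 2.47% in endothelial cells, 0.815% in fibroblasts, 2.5% in keratinocytes, 2.16% in macrophage-like cells and 1.24% in myeloid cells. For Ptpn11, the log2 fold change, IMQ+SHP099 over IMQ, was 0.03 ± 0.309 (SE) in all cells, 0.10 ± 0.236 in keratinocytes, 0.09 ± 0.294 in endothelial cells, -0.01 ± 0.256 in fibroblasts, 0.15 ± 0.400 in myeloid cells and -0.47 ± 0.447 in macrophage-like cells. In lymphocytes it was 0.78 ± 0.550, and there IMQ+SHP099 replicate 1 (101 CPM) lay above and replicate 2 (26.8) below both IMQ libraries. Within lymphocyte clusters 4 and 10 it was 0.14 ± 0.530 and 0.01 ± 0.572.

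For Ptpn6, the value was -0.59 ± 0.377 in all cells, -0.01 ± 0.266 in keratinocytes, -0.21 ± 0.376 in myeloid cells and 0.16 ± 0.330 in macrophage-like cells. In lymphocytes, Frs2 was at 9.49 and 8.78 CPM under IMQ and 22.6 and 16.9 under IMQ+SHP099, a log2 fold change of 1.03 ± 0.360 (edgeR unadjusted p = 0.0249, adjusted p = 1.00). Within clusters 4 and 10, Frs2 had 1.09 ± 0.779 and 1.01 ± 0.424. Within lymphocyte cluster 4, Ptpn6 was lower in both IMQ+SHP099 libraries than in both IMQ libraries (-1.56 ± 0.497, edgeR unadjusted p = 0.00892, adjusted p = 1.00). Within cluster 10, Ptpn6 had 0.11 ± 0.317.

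The genes whose IMQ+SHP099 libraries did not overlap those of IMQ numbered 1 of 8 in all cells (17.7% of all genes), 0 of 8 in fibroblasts (24%), 1 of 8 in keratinocytes (30.4%), 3 of 7 in endothelial cells (34%), 4 of 8 in lymphocytes (29.6%), 1 of 8 in myeloid cells (28.7%) and 2 of 8 in macrophage-like cells (35.3%). All these counts are on TMM-scaled levels, and with so many genes separated they are not a result about the members. Gab2 was found most often among the separated genes. It was higher in lymphocytes, myeloid cells and macrophage-like cells, a part of the myeloid cells, and lower in keratinocytes. In plain CPM, Gab2 overlapped in macrophage-like cells (17.2 and 20.3 under IMQ, 48.8 and 19.5 under IMQ+SHP099). It also overlapped in keratinocytes, at 0.820 and 0.999 against 0.399 and 0.869.

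In lymphocytes, Gab2 was at 3.95 and 6.20 CPM under IMQ and 22.6 and 6.95 under IMQ+SHP099 (log2 fold change 1.41 ± 0.661, edgeR adjusted p = 1.00). In myeloid cells, it was at 18.3 and 20.1 under IMQ and 41.9 and 24.8 under IMQ+SHP099 (0.76 ± 0.431). Of these 4 libraries, IMQ+SHP099 replicate 1 had the highest value in both classes, and in myeloid cells Sham replicate 1 was higher still at 52.9. IMQ+SHP099 replicate 1 stood apart in median depth over all cells. In lymphocyte cluster 4, it held 522724 UMIs in 384 cells, against 555653 in 267 cells of IMQ replicate 1. Cluster 4 made up 81.4% of the lymphocytes of that IMQ+SHP099 library. Within cluster 4, Gab2 was at 19.8 and 14.1 CPM under IMQ and 38.3 and 26.2 under IMQ+SHP099. Within cluster 10, it was at 1.24 and 5.57 against 0 and 4.48. Each of these levels rests on at most 20 UMIs. The part of depth or of the cluster shares in the Gab2 values was not tested.

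Genes around the 8 members were followed in 3 lists, the related adaptors (16 genes such as Irs1 and Dok1), the RAS-ERK cassette (17) and receptors with ITIM tails that bind SHP1 or SHP2 (17). Of the related adaptors, 8 to 15 were tested in a sum and 0 were called in either contrast. At an unadjusted p under 0.05 in IMQ against Sham, edgeR took 3 of 11 in lymphocytes (12.6% of all genes) and 3 of 8 in macrophage-like cells (25.7%). It took 2 of 15 in fibroblasts (13%), 2 of 9 in myeloid cells (11.1%) and 1 of 10 in endothelial cells (12.8%). In keratinocytes it took 1 of 14 (29.4%), and in all cells 0 of 15 (7.28%). The median log2 fold change of the related adaptors in keratinocytes was -0.23, beside -0.08 for all genes. No gene of any list was called by edgeR in IMQ+SHP099 against IMQ.

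Of the RAS-ERK genes, 1 of 17 rose in keratinocytes and 1 of 17 fell in macrophage-like cells in IMQ against Sham, beside 4.89% of all genes called higher in the first sum and 5.45% called lower in the second, and 0 were called in the other 5 sums. Map2k1, which encodes the ERK kinase MEK1, was at 19.97 and 26.8 CPM in Sham, 39.2 and 34.6 under IMQ and 42.7 and 47.8 under IMQ+SHP099 keratinocytes (log2 fold change 0.96, edgeR adjusted p = 0.0360). All 4 treated libraries were above Sham. The keratinocyte clusters differed between Sham and IMQ, as given above, and their part in the Map2k1 value was not tested. Rasa1, a RAS GTPase-activating protein, was at 24.5 and 81.1 in Sham macrophage-like cells against 19.1 and 22.9 in IMQ (-1.43, edgeR adjusted p = 0.0334), where the first value rests on 3 UMIs. Within cluster 13 alone, Rasa1 had -0.41 ± 0.543 (edgeR adjusted p = 0.818). The list's median was -0.17 in keratinocytes and -0.05 in macrophage-like cells, beside -0.08 and -0.03 for all genes.

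Of the ITIM receptors, 12 were tested in macrophage-like cells and 3 rose in IMQ against Sham, beside 4.36% of all genes called higher, with a list median of 0.95 beside -0.03 for all genes. Cd300lf, an inhibitory receptor of myeloid cells, was at 16.3 and 3.98 CPM in Sham and 108 and 115 under IMQ (log2 fold change 4.62, edgeR adjusted p = 0.00209). Ceacam1, an adhesion receptor, was at 16.3 and 13.5 in Sham and 35.3 and 63.2 under IMQ (2.08, edgeR adjusted p = 0.0236). Lilrb4a, another inhibitory receptor of myeloid cells, was at 48.9 and 48.5 in Sham and 131 and 97.6 under IMQ (1.49, edgeR adjusted p = 0.0321). The Sham replicate 1 values of Cd300lf and Ceacam1 each rest on 2 UMIs, and that of Lilrb4a on 6. For these 3 genes the IMQ+SHP099 libraries, at 71.0 and 122, 35.5 and 61.1, and 151 and 153, also lay above both Sham libraries. Within cluster 13, Lilrb4a was at 51.3 and 43.1 CPM in Sham and 40.9 and 45.2 under IMQ (-0.05 ± 0.483, edgeR adjusted p = 0.978). Ceacam1 and Cd300lf had too few UMIs there to be tested. Ceacam1 had 2 and 15 UMIs in Sham and 1 in each IMQ library, at 17.1 and 12.7 CPM against 2.92 and 3.47. Cd300lf had 0 and 4 UMIs in Sham and 7 and 3 in IMQ, at 0 and 3.38 CPM against 20.4 and 10.4.

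In myeloid cells as a whole, 0 of the 13 ITIM receptors tested were called by edgeR, with 7 at an unadjusted p under 0.05, beside 11.1% of all genes, and a list median of 1.40 beside -0.04. The shift of subsets in this class was given above. In fibroblasts, 1 of 6 rose and 1 fell, beside 0.428% of all genes called higher and 0.747% called lower. Fcgr2b, the inhibitory receptor for IgG, was at 5.00 and 8.40 in Sham and 60.2 and 37.9 under IMQ (2.98, edgeR adjusted p = 0.0317). Btla, a lymphocyte receptor, was at 1.91 and 4.94 in Sham and 0.208 and 0.230 under IMQ (-3.82, edgeR adjusted p = 0.0360). Fibroblast clusters 6 and 12, of 2408 and 940 cells, had at least 20 cells in only 3 libraries. The part of cluster makeup, or of RNA from immune cells, in the Fcgr2b and Btla values was not tested. In keratinocytes, 1 of 7 rose, beside the 4.89% of all genes given above, namely Cd5, a receptor of T cells, from 0.610 and 1.82 in Sham to 3.52 and 4.07 in IMQ (2.04, edgeR adjusted p = 0.0293). The lymphocyte markers in keratinocytes were higher in IMQ as well, as given above, and their part in the Cd5 value was not tested. In endothelial cells and lymphocytes, 0 of 4 and 0 of 9 were called, with 0 and 3 at an unadjusted p under 0.05, beside 12.8% and 12.6% of all genes.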

How the data were processed

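Per gene and barcode, the authors deposited raw UMI counts made with Cell Ranger 3.1.0 against GRCm38 (mm10). Barcodes under 100000 UMIs, 6500 genes and 10% mitochondrial UMIs were kept. Cells were scaled to 10000 UMIs and clustered (3000 variable genes, 30 components, 20 neighbours, Leiden resolution 0.8; scanpy 1.11.5, igraph 0.11.9, Python 3.11.15) into 30 clusters, without integration or the study's labels. Names came from marker lists. Clusters with a mean Scrublet score over 0.3 and mixed myeloid sub-clusters stayed unnamed (1.19% to 5.09% of a library), by limits set after the clusters were seen. Otherwise doublets were not removed.

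UMIs were summed per library and class. edgeR 4.0.16 (R 4.3.3) fitted all 6 libraries with TMM, filterByExpr and group as the only term, at an adjusted p of 0.05. DESeq2 1.42.0 was an alternative. SE is the log2 fold change over the square root of F. Immune against non-immune levels used a pseudocount of 0.5 UMIs. The fits were checked on simulated counts with known changes. The authors compared single cells, which are not replicates, so the tests here differ.

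Named were the 8 members, at most 3 list genes a direction past the threshold in a sum, and the 5 most like genes for each phosphatase. The members and lists were chosen with earlier results of these data known. Clusters 4, 9, 10 and 13 were chosen after the data were seen. Alternatives were other normalizations, filters, cell definitions, a replicate block and leaving out each library.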

Additional observations from a re-analysis of the deposited data

Results flagged for a closer look

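Between cell classes, some genes had libraries that moved wholly in opposite directions under the same contrast on TMM-scaled levels. The differences between classes were not tested. Outside the sum of all cells, libraries did not overlap for 43.7% to 62.8% of all genes per sum in IMQ against Sham. For IMQ+SHP099 against IMQ this share was 24% to 35.3%. How many of all genes separate in opposite directions was not counted. For IMQ over Sham, the log2 fold change of Ptpn6 was 1.03 in myeloid and 1.07 in macrophage-like cells, but -0.91 in keratinocytes and -0.65 in lymphocytes. That of Gab2 was 0.62 in fibroblasts, but -0.92 in keratinocytes, -0.95 in myeloid cells and -0.32 in macrophage-like cells. Grb2 had 0.083 in macrophage-like cells, -0.14 in fibroblasts and -0.10 in endothelial cells. In plain CPM, Grb2 overlapped in each of these classes, as in macrophage-like cells (212 and 262 in Sham, 208 and 231 under IMQ). For IMQ+SHP099 over IMQ, Gab2 had 1.41 in lymphocytes, 0.76 in myeloid and 0.49 in macrophage-like cells, but -0.55 in keratinocytes, and Sos1 had 0.40 in lymphocytes and -0.42 in endothelial cells. In plain CPM, Gab2 overlapped in macrophage-like cells and keratinocytes in that contrast. No value passed the adjusted threshold.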

How the results depend on the processing

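Of 1369 values recomputed under alternatives, 121 changed sign (77 with a library left out, 44 otherwise), 7 were newly called, and 0 were called and reversed. For IMQ against Sham in keratinocytes, 0 members became 1 with DESeq2, marker scores or a 5% mitochondrial limit (Ptpn6, adjusted p 0.0355, 0.0365 and 0.0441) and 1 with no filter or only the compared groups (Gab1, 0.0356 and 0.0439). Leaving out 1 library gave 0 to 1 members in endothelial cells (Gab1, -1.19 without Sham replicate 1, edgeR adjusted p = 0.0388) and in macrophage-like cells (Ptpn6, 1.16 without Sham replicate 1, 0.0486). Without Sham replicate 2, Gab1 in endothelial cells went from -0.76 to 0.75, and without IMQ+SHP099 replicate 1, Ptpn11 in lymphocytes went from 0.78 to -0.39 for IMQ+SHP099 over IMQ.

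The immune against non-immune differences kept their direction but missed an adjusted exact p of 0.05 under a pseudocount of 2, marker scores, a 5% mitochondrial limit and removal of the top 6% of Scrublet scores: Ptpn6 5.48, 5.14, 5.68 and 6.08, Gab1 -1.69, -1.99, -1.91 and -2.25, Gab2 0.88, 0.87, 0.87 and 0.80, Grb2 1.58, 1.503, 1.59 and 1.61, Sos1 -0.37, -0.36, -0.39 and -0.42, and Shc1 -0.78, -0.67, -0.80 and -0.92. Leaving out 1 library gave 5.53 to 5.86, -1.94 to -1.76, 0.50 to 1.00, 1.49 to 1.63, -0.47 to -0.30 and -0.89 to -0.70. The 0.50 for Gab2 is without IMQ+SHP099 replicate 1. With 5 libraries the exact test cannot pass.

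Over all genes, IMQ against Sham calls ranged from 0 to 574 (DESeq2) in all cells, 487 (without IMQ replicate 1; 667 without IMQ replicate 2) to 2978 (no filter; DESeq2 2622) around 1723 in keratinocytes, 6 (without Sham replicate 2; 26 and 72 without IMQ replicates 1 and 2) to 1456 (no filter) around 173 in fibroblasts, and 23 (without Sham replicate 2; marker scores 40, without IMQ replicate 1 162, without IMQ replicate 2 260) to 1554 (no filter) around 851 in macrophage-like cells. Without Sham replicate 1, the calls were 424 in fibroblasts, 482 in endothelial cells and 1401 in macrophage-like cells. From 0, no filter gave 722 in endothelial cells, 1106 in lymphocytes and 601 in myeloid cells. A replicate block called 0 members in every sum and contrast, and over all genes 287 in all cells, 434 in lymphocytes, 74 in myeloid cells, 63 in endothelial cells, 2531 in keratinocytes, 358 in fibroblasts and 655 in macrophage-like cells for IMQ against Sham. The 2 numbers are not a stated batch or pairing. Same-numbered libraries correlated above 0.1 between all groups in all cells, lymphocytes and myeloid cells (up to 0.562), but not in the other sums (down to 0.00849). Scrublet's own calls were not used because 3 libraries had 0. The Scrublet cut and the single-cluster fits were chosen after seeing the data. Pooled mice and 2 libraries a group limit every test.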
